A study of Mus musculus with 2 samples.

Results

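The replication-dependent histone genes encode the linker histone H1 and the core histones H2A, H2B, H3 and H4, which package newly copied DNA. They were taken as every gene of the deposited table whose symbol begins with Hist1h, Hist2h, Hist3h or Hist4h, which gave 67 of 23176 genes. By symbol, 6 encode H1, 18 H2A, 18 H2B, 12 H3 and 13 H4. Chromosome 13 holds 53 of them, chromosome 3 holds 10, chromosome 11 holds 3 and chromosome 6 holds 1. Histone type and chromosome were used only for grouping, but the group was proposed with its values known, so what follows describes these genes.

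Polyadenylated RNA was sequenced from mouse cell lines called STHdhQ7 and STHdhQ111, derived from embryonic day 14 striatum of 129SvEv/CD1 background. The STHdhQ7 line has the genotype HdhQ7/Q7 and the STHdhQ111 line HdhQ111/Q111, where the huntingtin gene carries an expanded CAG tract. Both lines were used below passage 15, cultured at 33 °C, and shifted for 2 days to 39 °C to halt division. The titles name 3 replicates per line, but the values are 1 combined FPKM (fragments per kilobase of transcript, scaled to sequencing depth) per line, so no spread between replicates can be shown. Where a pair of values is given, STHdhQ7 comes first. Each genotype is represented by 1 line, and an effect of the allele and the history of a line cannot be told apart. Htt, the huntingtin gene itself, had 3.91 FPKM in STHdhQ7 against 2.83 in STHdhQ111, with q = 0.663 in the authors' deposited table, and its expression level does not check the repeat length. Of 12 striatal and neuronal marker genes, 10 were under 0.3 FPKM in both lines, Drd1a among them at 0, and the exceptions were Penk (2.85 and 6.49 FPKM) and Tubb3 (2.42 and 3.62 FPKM). All 12 glial, immune and endothelial markers were under 0.3 FPKM in both lines, with sums of 0.482 and 0.703 FPKM. Among 6 neural progenitor markers, 4 were tested and 3 were called lower in STHdhQ111 in the authors' deposited table: Nes (35.99 and 0.999 FPKM), Sox2 (72.0 and 0.561 FPKM) and Pax6 (14.9 and 0.0213 FPKM). Vim, the remaining tested marker, had 3303 and 2483 FPKM and missed the threshold. The part of this marker difference in the histone values was not tested.

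Replication-dependent histone genes are transcribed mainly in S phase, when new DNA needs chromatin. Their messages have no introns and, unlike other messages, usually no poly(A) tail: the end is cut just after a conserved stem-loop that is bound by the stem-loop binding protein SLBP. The genes lie in clusters of near-identical copies, and many H2A and H2B genes are divided by a short shared promoter from which they run in opposite directions. Polyadenylated forms of some histone messages are known from cells that leave the cell cycle or differentiate. The RNA was selected here with oligo(dT), so the values are for the polyadenylated part, and a change of that share and a change of all histone RNA cannot be told apart. In bulk RNA, more cells that carry a message and more of it in each cell cannot be told apart either.

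The stem-loop is shown first because it is the element that sets how these messages end. A search of the transcripts for the 16-base word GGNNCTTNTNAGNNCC found it in 45 of the 66 histone genes with a transcript in the GENCODE M21 set (build GRCm38), and in 155 of 55271 other genes (0.28%). The forms found in at least 2 genes are printed as DNA, 5′ to 3′, with the loop in capitals.
Form in 25 genes, of types H1, H2A, H2B and H3: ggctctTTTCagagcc
Form in 6 genes, of types H1, H2B and H3: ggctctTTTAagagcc
Form in 7 genes, all H4: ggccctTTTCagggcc
Form in 2 genes, both H4: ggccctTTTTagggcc
Second form in 2 genes, both H4: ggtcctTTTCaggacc
The 11 H4 genes in these forms share no stem with the other types. The remaining 3 genes with the word each had a form of their own. Of the 21 histone genes without the word, 16 had transcript models of 500 bases or fewer, against 12 of those with it, so a missing word says only that these letters are not in the model.

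Promoters were read from RefSeq windows of 300 bases, 250 before and 50 after the start, on build GRCm38.p6, for 60 of the 67 genes. The start is that of the RefSeq model, which was not checked against where transcription begins. The letters searched, on either strand, were the octamer ATTTGCAT, bound by Oct-1 in H2B promoters, the CCAAT box and the TATA box word TATAAA. The octamer was in 7 of 17 H2A windows (41.2%) and 7 of 15 H2B windows (46.7%), in none of the 6 H1, 10 H3 and 12 H4 windows, and in 1.74% of all 32851 windows. CCAAT was in every H1, H2A, H2B and H3 window but in 3 of 12 H4 windows (25.0%), against 37.4% of all windows. TATAAA was in 35 of 60 histone windows (58.3%), against 13.6% of all. Head-to-head H2A and H2B genes lie 167 to 334 bases apart, so the windows of a pair can overlap. The same copy of a word can then be counted for both genes. The H2A and H2B counts of all 3 words are therefore not separate. Stretches of 4 genes that come up again below are printed with these words in capitals, from 150 bases before the start to the start or, for Hist1h2ba, from 250 to 86 bases before it. They belong to the called H2B, H3, H4 and H2A genes Hist1h2ba, Hist1h3c, Hist1h4h and Hist2h2aa1.
Hist1h2ba, chr13:23934242-23934406, strand -: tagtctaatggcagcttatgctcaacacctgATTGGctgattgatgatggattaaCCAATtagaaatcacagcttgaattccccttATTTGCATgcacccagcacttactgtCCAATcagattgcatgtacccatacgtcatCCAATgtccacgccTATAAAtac
Hist1h3c, chr13:23745522-23745671, strand -: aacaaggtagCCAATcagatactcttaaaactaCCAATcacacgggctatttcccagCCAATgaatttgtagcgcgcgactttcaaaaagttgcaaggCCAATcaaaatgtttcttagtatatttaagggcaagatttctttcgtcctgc
Hist1h4h, chr13:23530894-23531043, strand +: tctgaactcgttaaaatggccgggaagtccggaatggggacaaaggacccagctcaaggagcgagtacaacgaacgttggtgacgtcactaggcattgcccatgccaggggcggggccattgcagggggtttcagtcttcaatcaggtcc
Hist2h2aa1, chr3:96245347-96245496, strand +: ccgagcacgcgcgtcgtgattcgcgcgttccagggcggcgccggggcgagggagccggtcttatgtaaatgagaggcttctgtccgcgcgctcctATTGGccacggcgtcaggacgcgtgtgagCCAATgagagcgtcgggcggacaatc
The stretch of Hist1h2ba has all 3 words, those of Hist1h3c and Hist2h2aa1 have CCAAT in one orientation or the other, and that of Hist1h4h has none. A match of letters is a description and not a binding site.

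Histone messages were higher in STHdhQ111 across nearly the whole group. Summed FPKM went from 202.6 in STHdhQ7 to 500.5 in STHdhQ111, which is 2.47-fold, and from 0.048% to 0.117% of the FPKM of all genes. The 5 most abundant genes held 49.2% and 50.02% of these sums, about the same share in both lines. The count of histone genes at 1 FPKM or more went from 35 to 53 of 67. Of 67 genes, 63 were higher in STHdhQ111, 3 were lower and Hist2h2aa2 was at 0 in both.

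Of the 67, the authors' deposited table has 60 that were tested, and 11 had a q of 0.05 or less, here termed called. All 11 were higher in STHdhQ111, which is 18.3% of those tested, beside 6.35% of all 12740 tested genes called higher and 7.17% called lower. By any amount, 58 of the 60 were higher, beside 45.5% of all tested genes, and 43 were higher 2-fold or more (71.7%), beside 9.95%. As the group was proposed from this contrast, nothing is read from these shares. At a q of 0.01 or less, 5 were called, all higher, beside 4.62% of all tested genes called higher, and at 0.1 or less 17 were called, all higher, beside 7.35% called higher. The median log2 ratio, taken on (FPKM + 0.5), was 1.02 over the 67 genes and 1.11 over the 60, against -0.05 over all tested genes.

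The standard error implied by the authors' deposited table had a median of 0.75 on the log2 scale for the tested histone genes, against 0.44 for all tested genes. The last called gene was Hist1h3i, with q = 0.0402 in the authors' deposited table, and the first uncalled one Hist1h2bj, with q = 0.0693. In all, 6 genes, each of them higher, had a q between 0.05 and 0.1: Hist1h2bj, Hist1h2bg, Hist1h3h, Hist1h3f, Hist1h2bk and Hist1h1c.

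**Figure D1:**
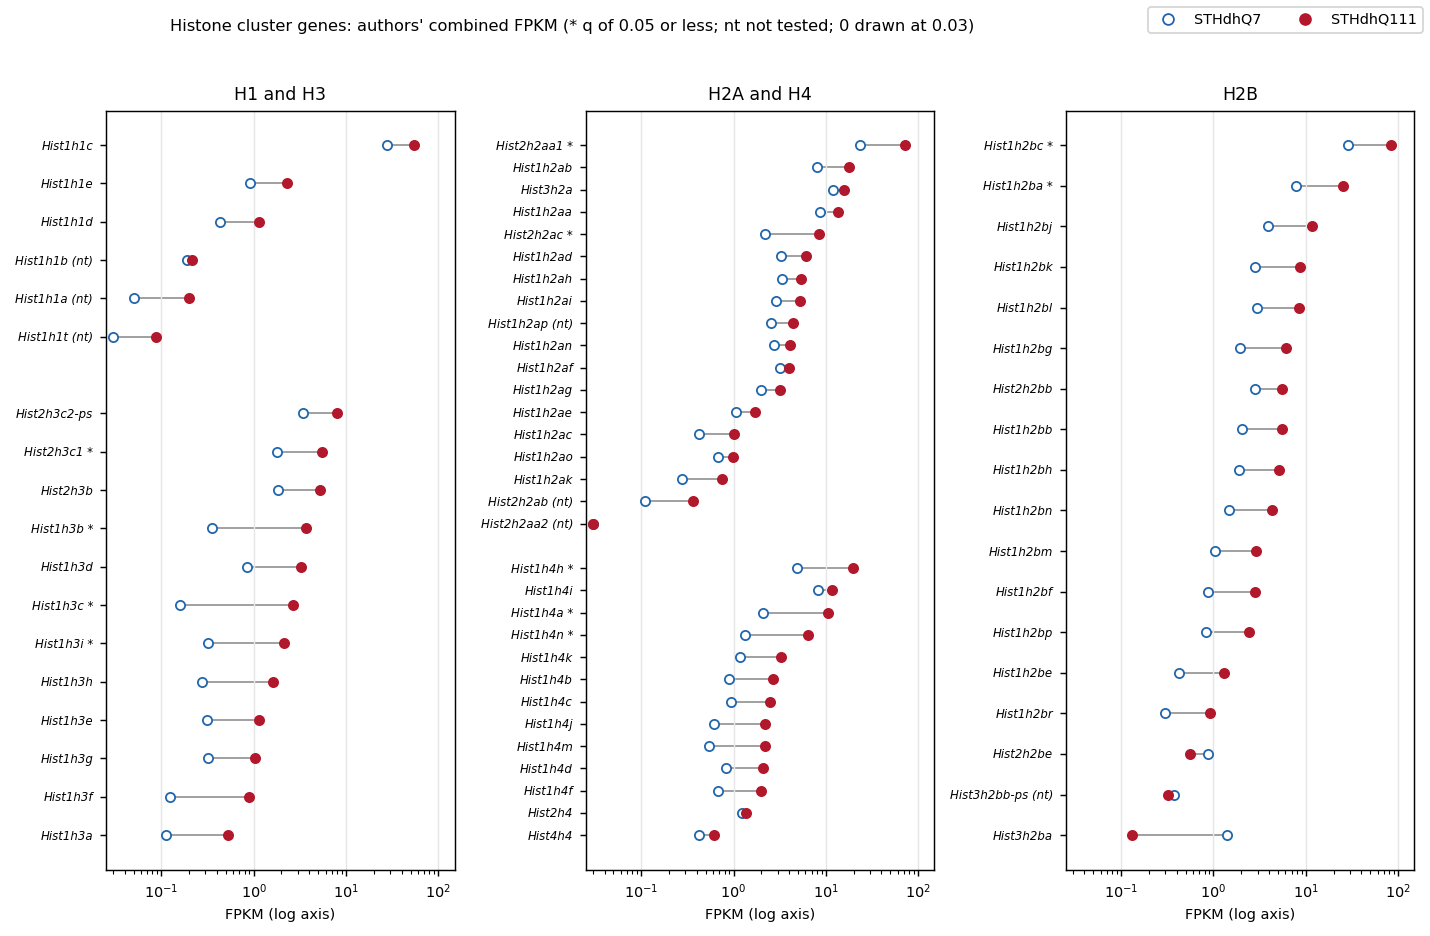
FPKM of each histone gene on a log axis, with an open point for STHdhQ7 and a filled point for STHdhQ111, grouped by histone type. Asterisks mark the 11 called genes, and the filled point lies to the right of the open one in 63 of 67 genes.

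H2B, which pairs with H2A in the nucleosome, was higher in every member on chromosome 13. The 14 H2B genes there summed to 57.2 FPKM in STHdhQ7 and 169.0 FPKM in STHdhQ111 (2.95-fold), and all 14 were 2-fold or more higher. Their log2 fold changes in the authors' deposited table lay close together, from 1.41 to 1.69. Hist1h2bc, the most abundant histone gene of the 67, had 29.0 FPKM in STHdhQ7 against 83.8 in STHdhQ111. The authors' deposited table gives it a log2 fold change of 1.53, with an implied SE of 0.41 (q = 0.00221). Its locus, chr13:23776068-23784349 on mm9, has a GENCODE transcript model of 1156 bases without the stem-loop word. Hist1h2ba, the H2B gene of testis chromatin whose promoter is printed above, was at 7.77 and 25.1 FPKM, a log2 fold change of 1.69 with an implied SE of 0.55 in the authors' deposited table (q = 0.0186).

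The other H2B genes of chromosome 13 were not called. Among them Hist1h2bj went from 3.88 to 11.7 FPKM, Hist1h2bk from 2.82 to 8.69 FPKM, Hist1h2bl from 2.98 to 8.43 FPKM, Hist1h2bg from 1.94 to 6.04 FPKM and Hist1h2bb from 2.06 to 5.49 FPKM. Of the 14, 2 were called (14.3%) in the authors' deposited table, beside 6.35% of all tested genes called higher. With these 2, 11 had an unadjusted p below 0.05 there and higher values in STHdhQ111. Of all tested genes, 21.2% had such a p in either direction. As reads may be shared among these copies, the 11 are not separate results. The H2B genes on other chromosomes were not all higher. Hist2h2bb on chromosome 3 was at 2.82 and 5.52 FPKM, and Hist2h2be beside it at 0.868 and 0.557 FPKM. Hist3h2ba on chromosome 11 had 1.42 FPKM in STHdhQ7 against 0.132 in STHdhQ111, and in the authors' deposited table its p was 0.0369 and its q 0.189. It was the single histone gene that was 2-fold or more lower among those tested.

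H2A genes, the partners of H2B, had no call on chromosome 13. The 13 H2A genes there summed to 39.2 and 68.3 FPKM (1.74-fold). None of the 12 tested was called in the authors' deposited table, though 1, Hist1h2ab, had an unadjusted p below 0.05. Beside 6.35% of all tested genes called higher, these 12 genes are too few to read. In the authors' deposited table their log2 fold changes ran from 0.34 to 1.43 and overlapped the H2B range only at its lower end. Hist1h2ab was at 8.07 and 18.0 FPKM, Hist1h2aa at 8.70 and 13.7 FPKM, Hist1h2ad at 3.29 and 6.05 FPKM, Hist1h2ah at 3.37 and 5.39 FPKM and Hist1h2ai at 2.89 and 5.18 FPKM. Whether H2A and H2B differed was not tested.

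Both called H2A genes lie in the chromosome 3 cluster. Hist2h2aa1 had 23.2 FPKM in STHdhQ7 against 71.7 in STHdhQ111, with a log2 fold change of 1.63 and an implied SE of 0.43 in the authors' deposited table (q = 0.00217). It lies at chr3:96043639-96044216 on mm9 and has the most common of the printed stem-loops. Hist2h2aa2 shares its locus, with 0 FPKM in both lines, no test (status LOWDATA) and the same log2 fold change of 1.63 in the authors' deposited table. No 36-base word of Hist2h2aa2 is unique to it (0%), and the value of the locus cannot be divided between the copies. Hist2h2ac was at 2.17 and 8.49 FPKM, a log2 fold change of 1.97 with an implied SE of 0.68 in the authors' deposited table (q = 0.0298). Hist3h2a on chromosome 11, with 11.9 and 15.8 FPKM, was not called.

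**Figure D2:**
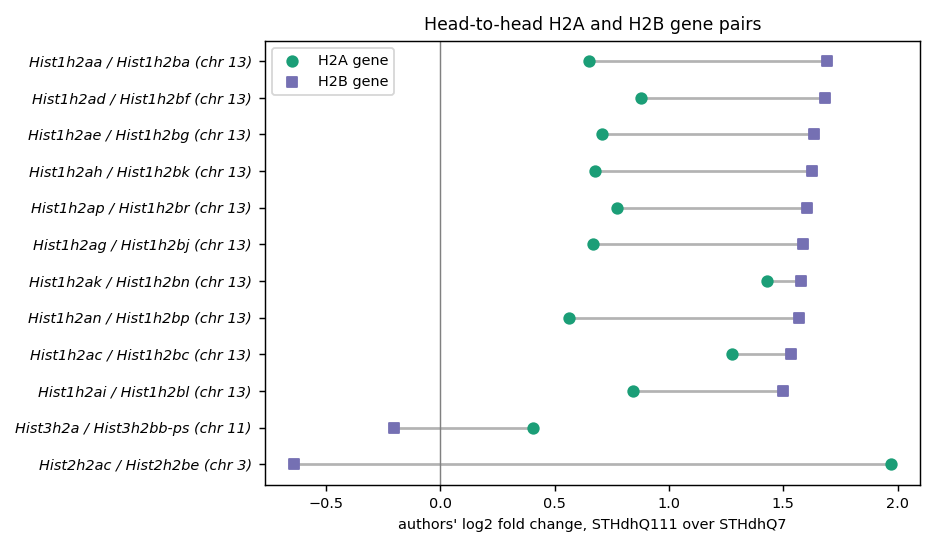
Log2 fold change of the authors' table, STHdhQ111 over STHdhQ7, for the H2A gene (circle) and the H2B gene (square) of 12 head-to-head pairs. The square lies to the right of the circle in 10 pairs, all on chromosome 13. Copies share sequence across pairs, so the pairs are not separate comparisons.

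The head-to-head arrangement lets an H2A and an H2B gene be compared at 1 shared promoter region. In the 12 pairs, 167 to 334 bases lie between the genes. In 10 pairs the H2B gene had the larger log2 fold change by the authors' deposited table. Copies share sequence across pairs, so the 10 are not separate comparisons, and the difference within a pair was not tested. For Hist1h2ak and Hist1h2bn the log2 fold changes were 1.43 and 1.58 in the authors' deposited table, with implied SEs of 1.28 and 0.75. Hist1h2aa and Hist1h2ba, the testis-type pair, went from 8.70 to 13.7 FPKM and from 7.77 to 25.1 FPKM. Hist1h2ac went from 0.420 to 1.02 FPKM beside Hist1h2bc, from 29.0 to 83.8 FPKM. The exceptions were Hist2h2ac beside Hist2h2be, where the H2A gene was higher and the H2B gene was not, and Hist3h2a beside the pseudogene Hist3h2bb-ps, at 0.370 and 0.321 FPKM and not tested. One of the 10 also holds an untested gene, Hist1h2ap, at 2.55 and 4.36 FPKM.

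H3, which carries many of the regulated chromatin marks, had the largest ratio of sums among the 5 histone types and low levels. The 12 H3 genes summed to 9.87 FPKM in STHdhQ7 and 35.6 FPKM in STHdhQ111 (3.61-fold), and all 12 were 2-fold or more higher. Of the 12, 4 were called (33.3%), beside 6.35% of all tested genes called higher. On chromosome 13 the 9 H3 genes summed to 2.83 and 17.0 FPKM (5.999-fold), with log2 fold changes of 1.71 to 4.04 in the authors' deposited table. Hist1h3c had 0.161 FPKM in STHdhQ7 against 2.65 in STHdhQ111, with a log2 fold change of 4.04 and an implied SE of 1.10 in the authors' deposited table (q = 0.00326). It lies at chr13:23836911-23837390 on mm9 and has the printed stem-loop with the loop TTTA. Hist1h3b was at 0.3503 and 3.66 FPKM, with 3.39 and an implied SE of 0.94 in the authors' deposited table (q = 0.00416). Hist1h3i was at 0.320 and 2.12 FPKM. All 3 were under 1 FPKM in STHdhQ7, and their ratios rest on these low values.

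The other 6 H3 genes on the same chromosome were not called. Hist1h3d went from 0.852 to 3.28 FPKM and Hist1h3h from 0.275 to 1.64 FPKM. On chromosome 3, Hist2h3c1 was at 1.79 and 5.50 FPKM, with a log2 fold change of 1.62 in the authors' deposited table (q = 0.0255). Hist2h3b was at 1.86 and 5.23 FPKM and Hist2h3c2-ps, listed as a pseudogene copy, at 3.40 and 7.92 FPKM. The H3 genes of chromosome 3 summed to 7.05 and 18.7 FPKM (2.65-fold).

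H4, the partner of H3, had 3 called genes of 13 (23.1%), all on chromosome 13, beside 6.35% of all tested genes called higher. There the 11 H4 genes summed to 22.3 and 64.9 FPKM (2.91-fold). Hist1h4h, the H4 gene with the highest level in STHdhQ111, was at 4.90 and 19.5 FPKM, with a log2 fold change of 1.99 and an implied SE of 0.55 in the authors' deposited table (q = 0.00372). It lies at chr13:23622913-23623390 on mm9 and has the H4 stem-loop found in 7 genes. Hist1h4a was at 2.07 and 10.5 FPKM, with 2.34 and an implied SE of 0.71 in the authors' deposited table (q = 0.01004). Hist1h4n was at 1.34 and 6.43 FPKM, with 2.27 and an implied SE of 0.78 in the authors' deposited table (q = 0.0296). Its locus is also given to Hist1h4m, at 0.544 and 2.19 FPKM. Sequences of this pair are nearly shared, since 83.8% of the 36-base words of Hist1h4n are in Hist1h4m.

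The remaining H4 genes were not called. Hist1h4i went from 8.29 to 11.6 FPKM, Hist1h4k from 1.18 to 3.29 FPKM, Hist1h4b from 0.902 to 2.68 FPKM, Hist1h4c from 0.936 to 2.47 FPKM and Hist1h4d from 0.831 to 2.08 FPKM. Outside chromosome 13, Hist2h4 was at 1.23 and 1.37 FPKM and Hist4h4 on chromosome 6 at 0.423 and 0.616 FPKM. Hist1h4i, the H4 gene with the highest level in STHdhQ7, had the smallest log2 fold change of those on chromosome 13 in the authors' deposited table.

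The linker histone H1, which binds DNA between nucleosomes, had no called gene among the 3 tested. These are too few to read against the 6.35% of all tested genes called higher. Hist1h1c, the main H1 gene here, went from 27.9 to 54.0 FPKM, with q = 0.0955 in the authors' deposited table. Hist1h1e went from 0.906 to 2.32 FPKM and Hist1h1d from 0.428 to 1.14 FPKM. The other 3 H1 genes were below 0.3 FPKM in both lines, and the testis form Hist1h1t was listed at 0 FPKM in STHdhQ7 and at 0.0865 FPKM in STHdhQ111. H1 genes share little sequence, with a median of 97.6% of 36-base words found in no other gene.

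**Figure D3:**
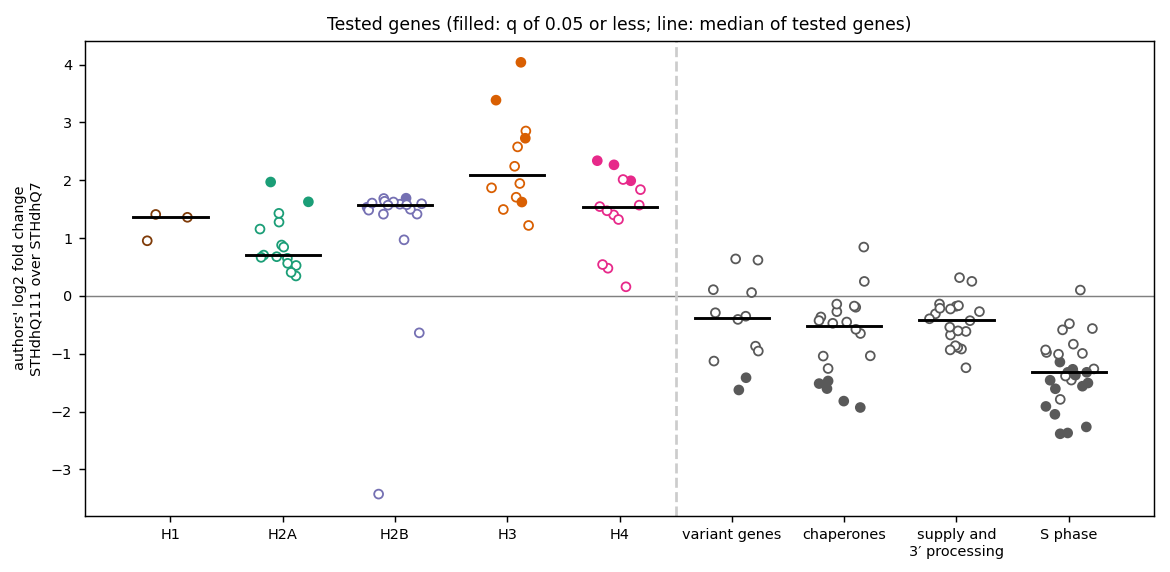
Log2 fold change of the authors' table for each tested gene, by histone type (left) and for 4 lists of partner genes (right), filled where called, with a line at the median. Histone genes are mostly above 0, while the S phase list has 15 called genes, all below 0.

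Position along chromosome 13 was examined because 53 of the genes lie within one interval, 21807632 to 24026720 on mm9. All 49 tested histone genes of this chromosome were higher in STHdhQ111. The interval holds 52 other rows of the table, of which 5 were tested: Abt1, Hfe, Prss16, Zfp184 and Zfp322a. None of the 5 was called or had an unadjusted p below 0.05 in the authors' deposited table, and their log2 ratios lay between -0.34 and 0.39. With a gap of 100 kb to divide them, the histone genes form 4 blocks of 17, 5, 29 and 2 genes, and the 15, 5, 27 and 2 tested in each were all higher. Calls in the 4 blocks numbered 2, 0, 5 and 1, together 16.3% of the 49 tested, beside 6.35% of all tested genes called higher.

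**Figure D4:**
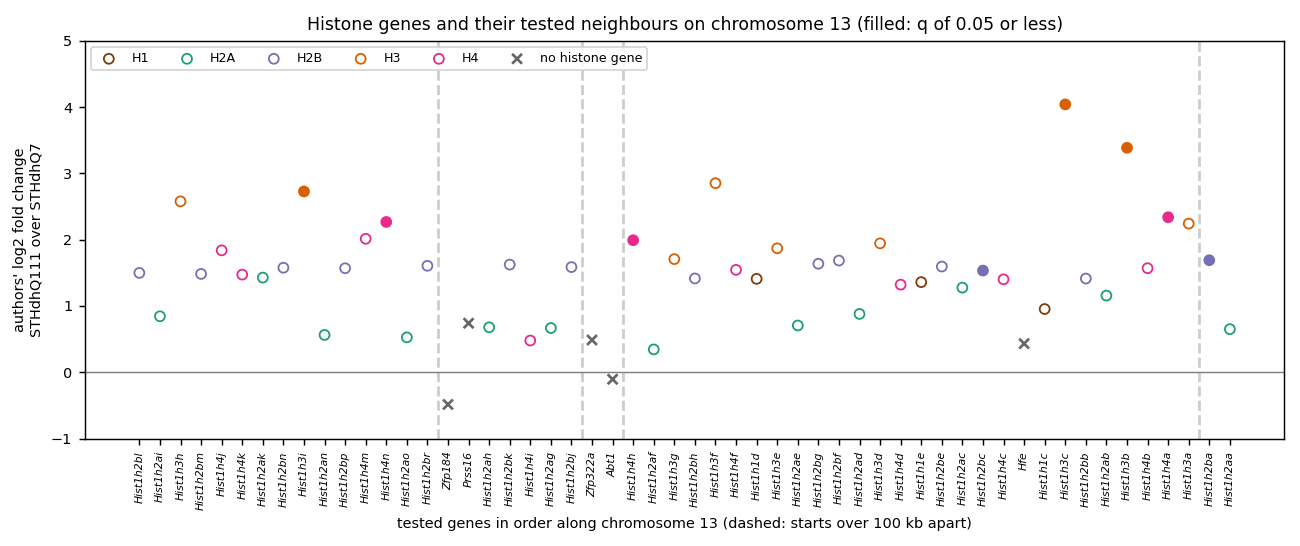
Log2 fold change of the authors' table for tested genes in order along chromosome 13, coloured by histone type, with crosses for neighbours that are no histone genes and filled points for called genes. Histone points lie above 0 throughout, and the 5 crosses fall between -0.49 (Zfp184) and 0.74 (Prss16).

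The sequence that follows the stem-loop in the transcript models was compared, since a model that runs on past it can hold a poly(A) site. In 22 genes the model runs over 100 bases past the stem-loop word, in 23 it ends within 100 bases, and 21 have no word. These are GENCODE models, and the locus that was counted can be shorter. For Hist1h4d the model runs 770 bases past the word, but the locus is 312 bases wide. The FPKM therefore need not include the part past the stem-loop. The sums were 65.8 and 130.3 FPKM in the first set, 62.8 and 187.3 FPKM in the second. Median log2 ratios were 0.95, 1.18 and 0.75 in the 3 sets. Called were 2 of 21, 6 of 21 and 3 of 17 tested genes (9.52%, 28.6% and 17.6%). Of all tested genes, 6.35% were called higher. The sets overlap in their values, the differences between them were not tested, and the polyadenylated share itself was not measured.

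Because the copies are similar, reads may be given to the wrong one. With 36-base words, a median of 48.6% of a gene's words occurred in no other GENCODE gene, from 97.6% for H1 to 26.2% for H2A. The words were taken from GENCODE models, which can be longer than the locus that was counted. Hist1h4d, with 86.1% unique words, has a model of 1138 bases and a locus of 312 bases. A split by unique words therefore need not part well-assigned from poorly assigned copies. Genes with 50% or more unique words included 28 tested, of which 26 were higher and 6 called (21.4%), with a median log2 ratio of 0.94. Genes below that share included 31 tested, of which 31 were higher and 5 called (16.1%), with a median of 1.16. Of all tested genes, 6.35% were called higher. No source used here gives the read length, and values of single copies depend on how reads were split. Sums by type do not depend on a split among copies of equal length within a type. They can depend on a split among copies of unlike length, such as Hist1h2bl and Hist1h2br, with GENCODE models of 381 and 2197 bases. They can also depend on a split with genes outside the 67. In 17 of the 66 genes, 50% or more of the words also occur in such genes, as for Hist2h2aa1, with 96.4% in Gm20632, and Hist1h2bl, with 77.2% in Hist1h2bq. Hist2h2aa1 had 3.63% and Hist1h4n 13.9% unique words, whereas Hist2h2be had 98.4%, Hist1h2bc 67.0% and Hist1h4h 51.7%.

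Among genes that supply or process histone messages, none was called. This list of 22 holds NPAT, the coactivator at histone clusters, SLBP and the 3′ end cleavage factors. Of 20 tested, none was called in the authors' deposited table, beside 13.5% of all tested genes called in either direction. This list is too small to read a count of 0 against that share. An unadjusted p below 0.05 was given there to 3 genes, all lower, beside 21.2% of all tested genes in either direction. By any amount 2 were higher, beside 45.5% of all tested genes. The 2 most abundant, Ncbp2 of the cap-binding complex and Sympk of the cleavage complex, were at 47.9 and 41.3 FPKM and at 37.7 and 31.2 FPKM. Chosen after its value was seen, Slbp had 36.8 FPKM in STHdhQ7 against 19.3 in STHdhQ111, and Npat at 4.54 and 3.37 FPKM. Over its tested genes the log2 ratio had a median of -0.38.

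Chaperones, which carry histones to DNA, fell in part. Of 20 tested, 5 were called lower and 0 higher in the authors' deposited table, beside 7.17% of all tested genes called lower, and the median log2 ratio was -0.52. Anp32e, which removes the variant H2A.Z, was at 43.6 and 11.4 FPKM. Hjurp, which loads the centromeric histone, was at 6.40 and 1.81 FPKM. Chaf1a and Chaf1b of the chromatin assembly factor went from 40.1 to 13.2 and from 18.6 to 6.72 FPKM, and Asf1b, a carrier of H3 and H4, from 16.9 to 5.91 FPKM. Nap1l1, at 167 and 81.2 FPKM, and Ssrp1, at 94.5 and 70.3 FPKM, were not called.

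Histone genes that are also expressed outside S phase, usually with poly(A) tails, were listed for comparison. Of 12 tested, 2 were called lower (16.7%) and 0 higher in the authors' deposited table, beside 7.17% of all tested genes called lower, a count too small to read against that share. By any amount 4 of the 12 were higher, and the median log2 ratio was -0.38. H2afz, which encodes H2A.Z, was at 345 and 112 FPKM, and H1fx, a linker variant, at 18.6 and 6.96 FPKM. H3f3b and H3f3a, which encode H3.3, had 387 and 199.6 FPKM and 215 and 162 FPKM, and neither was called.

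Of 28 tested S phase genes, 15 were called lower (53.6%) and 0 higher in the authors' deposited table, beside 7.17% of all tested genes called lower. The other 13 were not called, and the median log2 ratio was -1.28. Cdc45 and Cdc6, which start replication, went from 32.1 to 6.15 FPKM and from 6.88 to 1.33 FPKM, and Cdt1, which loads the helicase, from 75.7 to 20.1 FPKM. Mcm3 and Mcm5 of that helicase went from 101.5 to 21.1 and from 72.0 to 17.4 FPKM, and Pcna, the replication clamp, from 292 to 95.9 FPKM. Rrm1 was at 47.2 and 31.4 FPKM, and Rrm2, at 34.1 and 36.5 FPKM, was the one gene of the list that was higher by any amount. The histone genes, transcribed in the same phase, were higher in the same line. Whether one goes with the other was not tested.

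Other short transcripts, and other RNAs that lack a poly(A) tail, were set beside the histone genes. The gel slice of the library protocol was centred at 300 bp, and the histone loci have a median width of 473 bases, with 53 of 67 under 1000 bases. Of 116 other tested rows with a locus under 1000 bases, 62 were higher. Called were 1 higher (0.862%) and 3 lower (2.59%) in the authors' deposited table, beside 6.35% and 7.17% of all tested genes. The implied SE of the 116 had a median of 0.79 on the log2 scale, against 0.44 for all tested genes. The few calls therefore do not show that these rows were unchanged. Their median log2 ratio was 0.03. Of 52 tested small RNAs without a poly(A) tail, a list made after values were seen, 21 were higher, 31 were lower and none was called in the authors' deposited table (1 at an unadjusted p below 0.05, lower), with a median of -0.18. Summed over all 124 listed, tested or not, FPKM was 1400 in STHdhQ7 against 558 in STHdhQ111. The largest single values were 904 FPKM in STHdhQ7 and 281 FPKM in STHdhQ111, so each sum rests largely on 1 row. For the 52 tested, the SE implied by the authors' deposited table had a median of 18.7 on the log2 scale, so that for most of them a call was hardly possible. Within the list Rmrp, of the mitochondrial RNA processing enzyme, was at 4.002 and 8.43 FPKM, and Rpph1, of RNase P, at 3.58 and 9.75 FPKM. Neither was called, with q = 0.651 and 0.358 in the authors' deposited table. Both were higher, while 31 of the 52 were lower. Their implied SEs were 0.89 and 0.85, and 0.85 was the smallest of the 52. As 2 genes they do not stand for the list, and the direction of most of the 52 is itself poorly measured. What part oligo(dT) selection or fragment size had in the histone values was not tested.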

How the data were processed

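Messenger RNA was measured in 2 lines. The tools named, per the submitters' processing notes, are Cuffdiff, Cufflinks 2.0.2, Bowtie 0.12.7 and TopHat 1.4.0, with the genome build mm9. For Cuffdiff the version, and for all of them the options, were not given in the sources used. Per the file headers, the authors' deposited table gives 1 FPKM per line, combined over replicates, with a log2 fold change, a test statistic (a score), a p-value and a q-value. No own test could be fitted, nothing says that the replicates were separate cultures, so the p-values may measure technical spread only, and the depth is unknown. The library method is not described as marking strand, so overlapping genes on opposite strands cannot be told apart.

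Called means a deposited q of 0.05 or less. The implied SE is the log2 fold change divided by the deposited statistic, without sign. Log2 ratios used a pseudocount of 0.5, which understates changes of low genes. Locus starts were read as 0-based and raised by 1. Words of 36 bases and stem-loops were searched in GENCODE M21 transcripts, and promoters in RefSeq windows (GRCm38.p6), for sequence, strand and names only. Per histone type the 8 most abundant genes and all called ones were named, and per list up to 6 called and 2 uncalled genes. Genes named outside this rule were chosen after their values were seen. Members and lists were chosen with earlier results of these data known. The steps were tested on simulated data. Alternatives covered the threshold, adjustment, pseudocount, filter, scaling and copies. Python 3.11.15, numpy 2.4.6 and pandas 2.3.3 were used.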

Additional observations from a re-analysis of the deposited data

How the results depend on the processing

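Of 50 alternatives for the counts and medians, 31 stayed within the limits set for the same result, 19 moved and 0 reversed. A count of calls cannot reverse, so for the counts the 0 was fixed in advance. The 11 called histone genes were 5 at a q of 0.01 or less and 17 at a q of 0.1 or less. With only genes of 50% or more unique words in the GENCODE models, chosen after seeing the data, 6 were called. At a q of 0.01 the 5 called chaperones were 3 and the 2 called replication-independent histone genes were 1. The 15 called S phase genes were 10 at that q, and the 11 called histone genes were 9 without overlapping loci. Both of these were counted among the 31. The median log2 ratio of the 67 genes was 1.37 with a pseudocount of 0.1, 0.80 with 1, and 1.18 for those whose mean reached 1 FPKM. With pseudocounts of 0.1 and 1 it was 0.97 and 0.39 for H1, 1.43 and 1.04 for H2B, 1.71 and 1.09 for H3, and 1.42 and 0.95 for H4, and with 1 it was 0.49 for H2A. At a mean of at least 1 FPKM it was 0.97 for H1 and 1.48 for H3. The pseudocount weighs most on low genes by construction. The 122 pseudocount values of single histone genes kept their sign, but no positive pseudocount can change the sign of such a ratio, so this checks nothing. No paired analysis was possible because each line has 1 combined value, and no replicate could be left out for the same reason. The depth is unknown, so no counting interval can be given for low values.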
